A study of Arabidopsis thaliana with 33 samples.

Results

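Transposable elements (TEs) that gave RNA and lay apart from genes were followed in *Arabidopsis thaliana* seedlings. The deposited TE table of hda6 marked 643 of its 31189 TEs as tested, and the 265 of these whose span shared no base with a listed gene were kept. The other 378 tested TEs overlapped a gene. In all, 25254 listed TEs overlapped no gene, so most TEs outside genes were not tested. A TE can be tested through RNA in one genotype alone, and a TE at 0 in WT that was tested in hda6 therefore had to differ. The hda6 RNA values are given as a description for that reason.

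The seedlings were 12 days old, untreated, and grown on MS plates in long days (16 h light, 24 °C; 8 h dark, 22 °C). RNA-seq covered 5 genotypes with 3 replicates each: the Col-0 wild type (WT), the T-DNA insertion line hda6, the T-DNA insertion line hhp1, the triple mutant mbd1/2/4 (mbd124) and the quadruple mutant sant1234-null. ChIP-seq for acetylated histone H3 (H3ac) covered WT, hda6 and sant1234-null, also with 3 replicates each. The files gave 1 value per genotype and the same WT libraries served every comparison. No value below has a replicate spread, and tests are those of the authors' deposited tables, with a TE called at a q-value (adjusted p) under 0.05 and a peak at an FDR under 0.05. HDA6 RNA was 17.0 FPKM in WT and 18.8 in the libraries labelled hda6 (q = 0.735 in the authors' deposited table), so it gave no check of that label. MBD2 was 17.5 FPKM in WT and 6.45 in mbd124 (q = 0.000861 in the authors' deposited table). MBD1 was 15.5 and 0.0476 (q = 0.619 in the authors' deposited table) and MBD4 21.8 and 0.208 (q = 0.177), neither called. Labels give neither the alleles nor which loci are mutated in sant1234-null and hhp1.

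HDA6 is a histone deacetylase that removes acetyl groups from histone tails and takes part in the silencing of repeats, rDNA and transgenes. In plants, TEs are held silent by DNA methylation, by histone H3 lysine methylation and by small RNAs, and these layers depend on each other. Acetylated H3 is a mark of transcribed chromatin and usually lies near the 5′ end of a transcribed unit. Some TE-derived loci are not silent, because a host has taken them over as genes or because individual copies have escaped silencing.

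The 265 TEs fell at 224 sites when neighbours within 500 bp were joined, and 72 TEs stood at a site with another. They numbered 55, 54, 68, 27 and 61 on chromosomes 1 to 5. RefSeq has a locus at 211 of them, a pseudogene at 209, and those loci gave names and strands where they had one. The names singled out the Sadhu family, non-coding retrotransposons of Arabidopsis of which some copies are methylated and silent and others are transcribed. RefSeq places 10 Sadhu loci under 12 of the TEs. The first 100 bases of each are shown because the copies differed in RNA and in H3ac, and most of them still share a motif near the 5′ end. The letters come from the RefSeq genome TAIR10.1, read 5′ to 3′ on the annotated strand, and capitals mark CAATCGTT, a motif chosen by eye from these sequences. The 5 loci with more RNA in hda6 than in WT were these.
SADHU8-1 (chr1:18807295-18807394, minus strand): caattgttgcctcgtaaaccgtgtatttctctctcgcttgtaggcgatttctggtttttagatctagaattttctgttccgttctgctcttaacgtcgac
SADHU3-1 (chr3:15813957-15814056, minus strand): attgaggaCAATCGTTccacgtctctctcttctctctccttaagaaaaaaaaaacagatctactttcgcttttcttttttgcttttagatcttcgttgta
SADHU3-2 (chr3:14750195-14750294, minus strand): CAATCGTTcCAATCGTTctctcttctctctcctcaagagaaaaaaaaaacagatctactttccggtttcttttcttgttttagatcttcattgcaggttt
SADHU5-1 (chr4:660810-660909, plus strand): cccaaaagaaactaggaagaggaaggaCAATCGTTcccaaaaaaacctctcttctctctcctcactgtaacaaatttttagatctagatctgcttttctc
SADHU5-2 (chr5:9957541-9957640, minus strand): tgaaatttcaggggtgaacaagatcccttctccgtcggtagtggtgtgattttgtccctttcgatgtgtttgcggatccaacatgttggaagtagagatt
The 5 loci that were not called in hda6, all with RNA in WT, were the following.
SADHU1-1 (chr2:4006945-4007044, minus strand): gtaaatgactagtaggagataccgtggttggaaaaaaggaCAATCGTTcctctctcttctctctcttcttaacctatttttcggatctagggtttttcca
SADHU1-2 (chr1:10966907-10967006, plus strand): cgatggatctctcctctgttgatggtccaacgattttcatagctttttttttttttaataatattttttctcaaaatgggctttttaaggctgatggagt
SADHU1-3 (chr5:10632241-10632340, plus strand): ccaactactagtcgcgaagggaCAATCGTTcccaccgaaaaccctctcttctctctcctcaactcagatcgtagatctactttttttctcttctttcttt
SADHU2-1 (chr1:12841019-12841118, minus strand): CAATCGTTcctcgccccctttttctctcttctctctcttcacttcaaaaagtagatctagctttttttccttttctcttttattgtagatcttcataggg
SADHU4-1 (chr5:10934631-10934730, minus strand): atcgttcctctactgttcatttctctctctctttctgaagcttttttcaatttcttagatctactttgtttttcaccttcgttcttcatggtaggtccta
CAATCGTT was found in 6 of these 10 stretches, in loci of both kinds, and SADHU3-2 has 2 copies. In the end stretches of 100 bases of all 19448 listed TEs of 200 bp or more, searched on both strands, 0.437% held it. SADHU3-1 and SADHU3-2 were 79.7% identical over 910 aligned bases, and SADHU5-1 and SADHU5-2 were 83.7% identical over 756 bases.

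The 3 stretches of 150 bases below are the centres of H3ac peaks with some of the largest folds in hda6 among those at the 265 TEs. They are given on the plus strand, with CG sites (the main target of maintenance DNA methylation) in capitals. AT2TE23970 and AT4TE32185 lie on different chromosomes and were 95.2% identical over 858 aligned bases, so reads may not have been assigned to one or the other with certainty.
AT1TE42875 (chr1:13127811-13127960, plus strand): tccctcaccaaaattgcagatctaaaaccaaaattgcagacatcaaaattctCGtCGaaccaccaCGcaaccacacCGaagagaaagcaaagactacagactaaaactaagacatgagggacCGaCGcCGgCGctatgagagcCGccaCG
AT2TE23970 (chr2:5886833-5886982, plus strand): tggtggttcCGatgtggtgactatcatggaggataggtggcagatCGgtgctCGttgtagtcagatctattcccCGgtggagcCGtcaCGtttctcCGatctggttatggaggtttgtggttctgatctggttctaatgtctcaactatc
AT4TE32185 (chr4:7389846-7389995, plus strand): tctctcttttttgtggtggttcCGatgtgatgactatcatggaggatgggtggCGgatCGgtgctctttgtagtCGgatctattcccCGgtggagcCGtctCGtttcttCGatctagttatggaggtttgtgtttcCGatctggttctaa
These windows hold 10, 7 and 9 CG sites. For the members with long terminal repeats, the hallmark of one class of retrotransposon, AT3TE76225 serves as the example. Its ends are 2 identical copies of a 353-base repeat that starts with TG and ends with CA (capitals), as such repeats usually do.
AT3TE76225 repeat start (chr3:18791152-18791211, plus strand): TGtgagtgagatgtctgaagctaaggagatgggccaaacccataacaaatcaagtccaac
AT3TE76225 repeat end (chr3:18791445-18791504, plus strand): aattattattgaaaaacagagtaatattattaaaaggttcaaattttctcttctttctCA

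In WT, 108 of the 265 TEs were listed at 0 FPKM, and 103 of these were called higher in hda6 in the authors' deposited table, at 181 to 26046 FPKM (median 529). The other 5 from 0 were not called, at 148 to 5563 FPKM. A further 32 TEs were called higher from a WT level above 0, by a log2 change of 0.85 to 9.68 (median 2.82). The total was 135 called higher (50.9%) and 7 lower, beside 26.1% higher and 4.35% lower of all 643 tested TEs in the same table, and nothing is read from these shares because the rule used this contrast. In bulk seedlings, more cells with RNA of a TE and more RNA per cell cannot be told apart.

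The call did not follow the size of the change. A total of 154 TEs were at 0 in WT or at least 8-fold higher in hda6 (log2 of 3 or more), and 118 of these were called. The other 36 were not, with q-values of 0.0571 to 0.422 in the authors' deposited table and a median hda6 level of 1079 FPKM. Where WT was above 0 but under 20 FPKM, 29 of 29 TEs had such a log2 change and 6 were called. A TE this low in WT can be tested through its hda6 RNA alone, so the rule nearly fixes such a change. AT4TE32185 (chromosome 4) went from 15.8 FPKM in WT to 9291 in hda6 and was not called (q = 0.161 in the authors' deposited table). AT1TE60180 went from 0.282 to 692 FPKM and was not called either (q = 0.295 in the authors' deposited table). TEs that were not called thus do not form a group without change, and 73 of the 123 had a log2 change within 1 of 0.

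**Figure D1:**
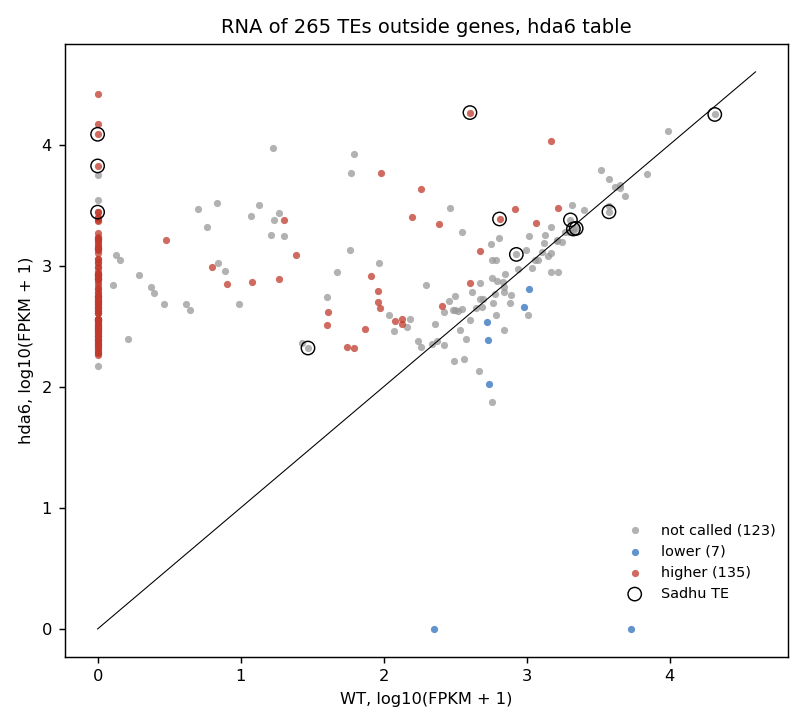
RNA of the 265 TEs in WT and hda6 as log10(FPKM + 1), coloured by the call in the hda6 table, with the 12 Sadhu TEs circled and the line of equal values drawn. The 108 TEs at 0 in WT form the column at the left, and grey points above the line with low WT values are TEs with a large change that was not called.

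AT1TE42875 (chromosome 1, 902 bp, TE-rich surroundings, no RefSeq locus) had the highest hda6 level of the TEs from 0. Its FPKM was 0 in WT, 26046 in hda6, 4.20 in sant1234-null, 0 in mbd124 and 57.1 in hhp1. AT2TE23970 (chromosome 2) followed with 14755 FPKM in hda6 and 0 in each other genotype. It shares its printed span of 13805 bp with AT2TE23965, which had 513 FPKM in hda6, so the span is that of both together. AT1TE45390, a TE of 354 bp at a RefSeq pseudogene, had 2756 FPKM in hda6 and 0 elsewhere. Of the 5 genotypes, hda6 alone had RNA listed for AT2TE23970, AT2TE23965 and AT1TE45390.

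Among TEs with RNA in WT that were called in hda6, the largest log2 change belonged to AT5TE08220 (9.68, from 1.99 to 1630 FPKM). AT3TE64435 went from 5.36 to 975 FPKM, AT3TE43550 from 19.0 to 2392 and AT2TE08225 from 7.03 to 707. AT2TE78210 went from 11.0 to 736 FPKM, and AT3TE90530 from 23.2 to 1214. These 6 were all above 4000 bp long and none was tested in another mutant. Of the 7 TEs called lower, AT3TE09750, a TE of 194 bp at a transcribed pseudogene, dropped out, from 5354 FPKM in WT to a listed 0 in hda6. It was also at 0 in sant1234-null against 7539 in the WT column there (q = 0.113 in the authors' deposited table). AT4TE21100 went from 223 FPKM to 0, AT4TE83950 from 541 to 104 and AT1TE23980 from 963 to 453. AT4TE21115 went from 1037 to 636 FPKM and AT4TE67490 from 531 to 340. Of 66 TEs with 500 FPKM or more in WT, 5 were called higher and 6 lower.

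Terminal direct repeats of 100 bp or more were found at 31 TEs, with a median length of 185 bp and a median identity of 98.7%. In hda6, 19 of them were called higher, 2 lower and 10 not, beside 50.9% higher of the 265 TEs. The 10 include AT5TE71590 and AT5TE71595, of 651 and 657 bp, at the RefSeq locus EXT11. The search took any direct repeat, and whether each marks a retrotransposon was not examined. The 15 listed at 0 in WT were all among the 19, as the rule nearly fixes. AT5TE47100 went from 0 FPKM to 1854, AT1TE66380 from 0 to 1425, AT2TE37050 from 0 to 981 and AT3TE76225 from 0 to 780. AT3TE76225 stood at 0, 3.64 and 2.08 FPKM in sant1234-null, mbd124 and hhp1. RE2 (AT4TE06710), a copia-type retrotransposon, went from 3.15 to 478 FPKM in hda6 and from 4.40 to 565 in sant1234-null, and neither was called (q = 0.157 and 0.319 in the authors' deposited tables). The log2 change of RE2 was thus large in both (7.25 in hda6 and 7.0 in sant1234-null), while mbd124 stood at 36.0 and hhp1 at 7.79 FPKM.

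The Sadhu TEs differed in their RNA, both in WT and between WT and hda6. SADHU8-1 went from 0 FPKM in WT to 12147 in hda6, SADHU3-1 from 0 to 6653, and SADHU5-2 from 0 to 2764. In the other mutants these 3 were at 0, except SADHU8-1 at 21.5 FPKM in mbd124. SADHU3-2 went from 400 to 18350 FPKM in hda6 and SADHU5-1 from 645 to 2426. These 5 were called higher in hda6, and the other 7 Sadhu TEs, at the other 5 loci, were not called.

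The Sadhu copies that were not called in hda6 were near their WT level there, except over AT5TE38725. SADHU1-1 (AT2TE16945) had the highest WT level of all 265 TEs, 20644 FPKM, and 17706 in hda6. SADHU1-2 was at 2120 and 2004 FPKM, SADHU2-1 at 2021 and 2385, and SADHU4-1 at 2217 and 2029. SADHU1-3 had 845 and 1236 FPKM over AT5TE38720 and 28.6 and 208 over AT5TE38725, which share a printed span. None of these 5 loci was called in any of the 4 mutants. After SADHU1-1, the highest WT levels were those of AT5TE17350 (9739 FPKM in WT, 12958 in hda6), AT3TE43605 (6889 and 5759), AT3TE09750 and AT1TE37065 (4860 and 3725).

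A pair of Sadhu loci was also called in other mutants. SADHU5-1 rose in sant1234-null (909 to 3258 FPKM, a log2 change of 1.84, with q = 0.00103 in the authors' deposited table) and was at 1181 in mbd124 and 1333 in hhp1, not called. SADHU3-2 fell in sant1234-null from 564 to 182 FPKM (q = 0.0452 in the authors' deposited table) and rose in mbd124 from 577 to 1266 (q = 0.0442). SADHU3-2 was thus higher in hda6 and mbd124, lower in sant1234-null, and at 598 FPKM against 580 in hhp1.

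MUG loci are MUSTANG genes, which encode transposases of the Mutator type that plants have taken over as genes. MUG1, MUG4, MUG5 and MUG8 were at 1976, 3769, 1088 and 1630 FPKM in WT and at 1899, 3126, 959 and 1627 in hda6. None was called in any of the 4 mutants, with MUG5 in mbd124 nearest to a call (1563 to 2383 FPKM, q = 0.0577 in the authors' deposited table). CYTOSLEEPER (AT1TE17030), derived from a transposase of the hAT type, differed from them. It went from 134 to 364 FPKM in hda6, rose from 189 to 877 in sant1234-null and from 194 to 436 in hhp1, and stood at 300 in mbd124, where it was not tested.

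**Figure D2:**
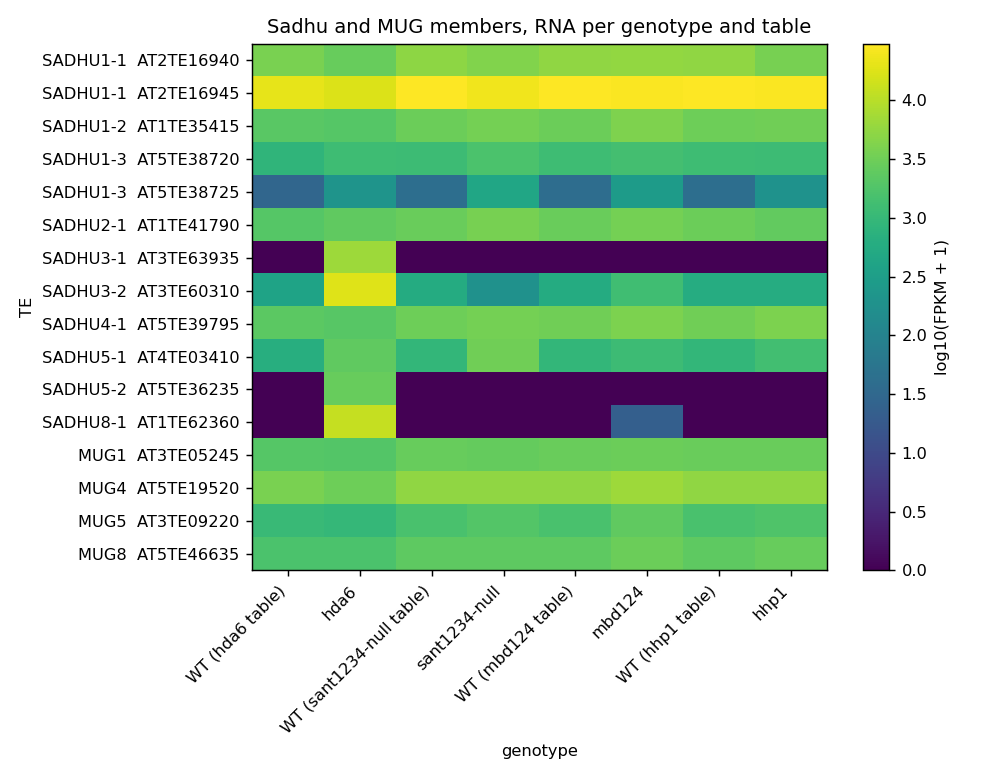
RNA of the 12 Sadhu and 4 MUG TEs as log10(FPKM + 1), with 1 column for each genotype of each TE table, so that WT appears 4 times. SADHU3-1, SADHU5-2 and SADHU8-1 are dark outside hda6 except SADHU8-1 at 21.5 FPKM in mbd124, and the MUG rows keep nearly the same shade within each pair of columns.

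The WT levels of the other 3 TE tables were 1.41 to 1.44 times those of the hda6 table by median, so levels are compared within a table. In sant1234-null, 106 of the 265 TEs were tested, of which 12 rose and 2 fell, beside 5.72% higher and 4.24% lower of all tested TEs. In mbd124, 100 were tested, of which 6 rose and 5 fell, beside 3.12% and 4.45% of all. In hhp1, 99 were tested, of which 4 rose and 3 fell, beside 2.65% and 4.64%. As shares of the TEs tested, 11.3% rose in sant1234-null, 6% in mbd124 and 4.04% in hhp1. The share in sant1234-null was above the background of its table, which includes these TEs. In mbd124 and hhp1 the shares rest on 6 and 4 TEs, and nothing is read from their excess. The shares that fell were 1.89%, 5% and 3.03%, on 2, 5 and 3 TEs, too few to set above or below the background. None of these differences, nor one between the mutants, was tested. Most of the TEs from 0 in WT stayed at 0 here: of the 103 called in hda6, 14 were above 0 in sant1234-null, 15 in mbd124 and 16 in hhp1.

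The 12 TEs that rose in sant1234-null did so by a log2 change of 0.85 to 3.61 (median 1.75). Of these, 9 were also called higher in hda6, a comparison with the same WT libraries. The largest changes were those of AT3TE30970 (126 to 1538 FPKM, q = 0.00103) and AT5TE17325 (104 to 750, q = 0.00103), both from the authors' deposited table. AT3TE30970 is one of 3 neighbouring TEs on chromosome 3 that rose together. AT3TE30960 went from 362 to 1265 FPKM and AT3TE30965 from 406 to 1310. In hda6 these 3 reached 503, 461 and 510 FPKM from 89.6, 256 and 287, and AT3TE30965 was not called there. AT2TE28020 rose in sant1234-null from 135 to 624 FPKM and in mbd124 from 137 to 514, and reached 5775 from 95.5 in hda6. AT2TE42485 rose from 562 to 1637 FPKM in sant1234-null and from 568 to 1157 in mbd124. AT3TE60870 (666 to 1202 FPKM) and AT5TE12450 (2341 to 4747) rose in sant1234-null and were called higher in hda6 as well.

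A few TEs were called in several mutants, which share the WT libraries, and not in hda6. AT3TE08235, at a transcribed pseudogene, rose from 2937 to 6419 FPKM in sant1234-null, from 3003 to 5460 in mbd124 and from 3020 to 5386 in hhp1. It stood at 2083 in WT and 3155 in hda6 (q = 0.0914 in the authors' deposited table). AT5TE36470 rose in sant1234-null (5330 to 9792 FPKM) and in hhp1 (5470 to 11604). In mbd124 it was at 4302 FPKM against 5388, not called.

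AT5TE49725 (chromosome 5, 5066 bp printed span shared with another TE, TE-rich surroundings) fell in every mutant. It was at 533 FPKM in WT and 243 in hda6. Its values fell from 751 to 219 FPKM in sant1234-null, from 766 to 351 in mbd124 and from 772 to 219 in hhp1, each called in the authors' deposited tables (q = 0.00103, 0.0015 and 0.00324). It was the only TE of the 265 called in all 4 tables, and none was higher in all 4. All 4 tables share the WT libraries, so these calls are not independent.

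In mbd124, the TEs that fell were AT5TE49725, AT3TE43605 (9973 to 2632 FPKM), AT1TE22850 (1171 to 351), AT4TE67490 (760 to 368) and AT3TE43615 (6455 to 3925). AT1TE22850 went the other way in hda6, from 825 to 2912 FPKM. AT2TE07145 (2109 to 3798 FPKM) and AT5TE69245 (876 to 1610) rose in mbd124. AT3TE43605, AT3TE43610 and AT3TE43615 are neighbours on chromosome 3, and AT3TE43610 rose in hhp1 from 6498 to 11393 FPKM. In hhp1, AT5TE71590 fell from 2106 to 922 FPKM and AT5TE71595 from 1421 to 476, both at the RefSeq locus EXT11, named for a cell wall extensin. Most of the bases of AT5TE71590 and AT5TE71595 (89.7% and 88.9%) have a near-identical copy in another listed TE. AT5TE71590 and AT5TE71595 are neighbours, so each may be the copy of the other.

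**Figure D3:**
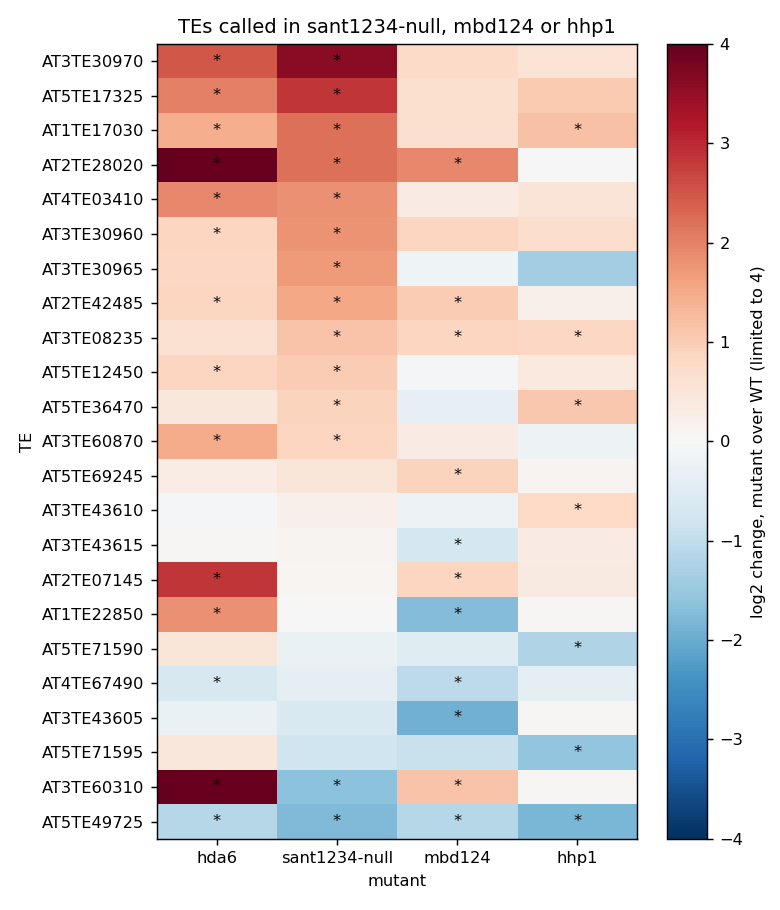
Log2 change of FPKM, mutant over WT of the same table, for the 23 TEs called in sant1234-null, mbd124 or hhp1, with an asterisk where the authors' test called the TE and colour limited to 4 either way. AT5TE49725 in the bottom row is blue with an asterisk in each column, and AT3TE60310 (SADHU3-2) above it changes colour between mutants.

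H3ac was not used to choose the TEs, but TEs with RNA in hda6 alone are among them by the rule. The peak table of hda6 had 149 peaks at 125 of the 265 TEs, none of which overlapped a gene. Of these peaks, 57 were higher in hda6 (38.3%) and 10 lower (6.71%), beside 5.29% higher and 22.5% lower of all 24898 peaks. WT signal was at the floor of 0 (log2 concentration, the authors' mean normalised read number of a peak) for 21 of the peaks at these TEs, 20 of them called higher. Of the 135 TEs called higher in hda6 RNA, 63 had a peak and 48 a higher one, and none had a lower one. Of the 123 not called, 58 had a peak, 10 a higher one and 11 a lower one. The 36 TEs with a large but uncalled RNA change held 7 of the 10 with a higher peak, and the 73 with a log2 change within 1 of 0 held 3.

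AT4TE32185 had the largest fold of the whole hda6 peak table, with a listed concentration of 0 in WT and 9.70 in hda6 and a log2 fold of 11.67 in the authors' deposited table. Among peaks at the 265 TEs, the next were SADHU3-1 (10.58), AT1TE42875 (10.50) and AT2TE23970 (10.38) in the authors' deposited table. Each had 0 in WT and 8.36 to 8.56 in hda6. Of the same peaks, AT5TE47100 (9.67), AT4TE13280 (9.48) and AT4TE36845 (9.08) followed in that table, also from 0 in WT. Folds against the floor depend on the authors' fit and are no measure of size. AT4TE13280 had RNA of 17.7 FPKM in WT and 2716 in hda6, not called, and AT4TE36845 went from 0 to 598.

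H3ac at the Sadhu loci is given in the order of their RNA calls in hda6. SADHU8-1 had concentrations of 1.21 in WT and 8.96 in hda6, SADHU3-2 of 2.72 and 8.68, SADHU5-2 of 1.99 and 8.57, and SADHU5-1 of 3.93 and 5.88, all called higher in the authors' deposited table, as was SADHU3-1. The 5 loci not called in hda6 RNA had WT concentrations of 8.52 to 10.45. SADHU1-1 was lower in hda6 (10.45 to 9.81), as were SADHU1-2 (9.96 to 9.21) and SADHU2-1 (9.54 to 8.83), in the authors' deposited table. SADHU1-3 (9.71 to 9.44) and SADHU4-1 (8.52 to 8.79) were not called there. The 5 Sadhu loci with low H3ac in WT gained it in hda6, and 3 of the 5 with high H3ac in WT lost some. The log2 folds of these 3 were -0.68, -0.63 and -0.56. Over all hda6 peaks the median log2 fold was -0.23 and 22.5% were called lower. The authors' deposited table also had a lower peak at MUG4, 8.05 in WT and 7.10 in hda6.

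**Figure D4:**
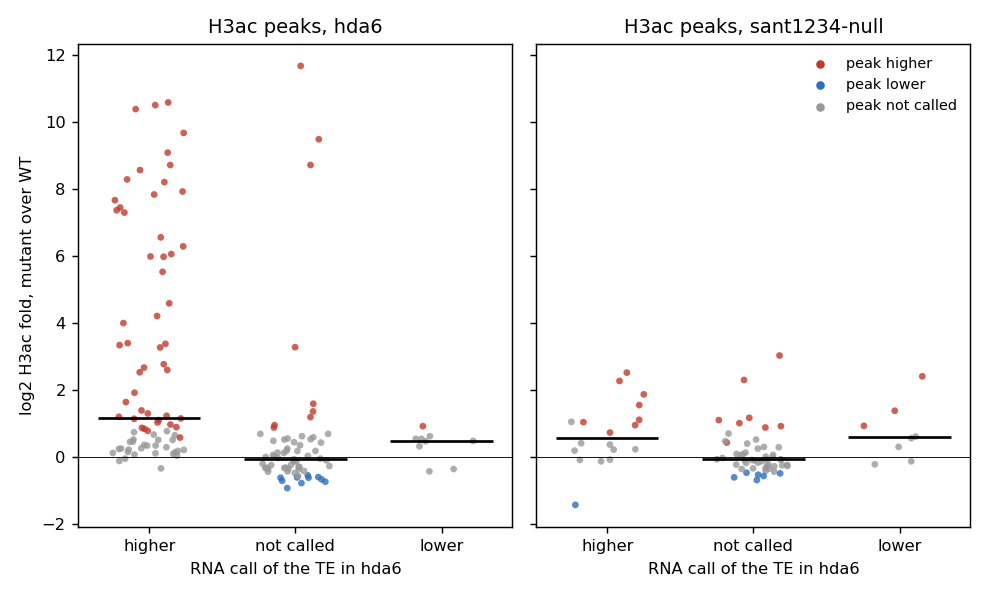
Log2 fold of each H3ac peak at the TEs, mutant over WT, grouped by the RNA call of the TE in hda6, with colour for the call of the peak and a bar for the median. In hda6 the peaks of TEs with higher RNA reach 10.58 and their median is 1.14, while the median for TEs not called is -0.07, and in sant1234-null no peak exceeds 3.02.

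In sant1234-null, 78 peaks stood at 70 of the 265 TEs, of which 19 were higher (24.4%) and 7 lower (8.97%), beside 15.2% and 12.9% of all 24998 peaks. The median fold of the 19 was a log2 of 1.1 in the authors' deposited table. A higher peak was found at 11 TEs in both mutants and a lower one at 7, but the mutants share the WT libraries. Of the 59 TEs with a higher peak in hda6, 44 had no peak in the sant1234-null table.

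RE2 had the largest fold of the 265 TEs in sant1234-null, with 5.52 in WT and 8.58 in the mutant (fold 3.02, FDR 2.08e-27 in the authors' deposited table). A peak at the same end of RE2 rose in hda6 from 5.37 to 7.23 (1.58). AT4TE25320 rose in sant1234-null by 2.51, AT5TE49725 by 2.4, AT1TE57805 by 2.29, AT2TE42485 by 2.26, AT3TE30970 by 1.86 and AT5TE00480 by 1.54, as log2 folds of the authors' deposited table. AT4TE25320 had RNA listed at 0 in WT and at 399 FPKM in sant1234-null, not tested there. AT5TE49725 therefore had more H3ac and less RNA in sant1234-null, and 1 of its 5 peaks was also higher in hda6. AT1TE57805 gained H3ac with RNA of 525 FPKM in WT and 438 in sant1234-null, not called. AT5TE48605 went the other way, with H3ac lower in sant1234-null (6.48 to 1.90) and higher in hda6 (6.34 to 7.50) in the authors' deposited tables. The log2 folds in the authors' deposited tables were -1.44 (FDR 0.0434) in sant1234-null and 0.96 (FDR 0.00126) in hda6. SADHU5-1, CYTOSLEEPER and SADHU4-1 had higher peaks in sant1234-null (log2 folds of 1.03, 1.1 and 0.42 in the authors' deposited table), and SADHU1-1, SADHU1-2, SADHU2-1 and MUG4 lower ones. Of the 12 TEs whose RNA rose in sant1234-null, 9 had a peak there and 6 a higher one.

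In hda6, higher peaks were by median nearer to the 5′ end of the TEs than peaks that were not called. Over TEs of 1000 bp or more with a strand from RefSeq, the centres of 39 higher peaks in hda6 had a median distance of 443 bp from the 5′ end, and 20 were within 500 bp of it. Near the 3′ end there was 1. Centres of the 65 peaks that were not called had a median distance of 1244 bp, with 23 within 500 bp of the 5′ end and 4 of the 3′ end. In sant1234-null the order was the other way: the 14 higher peaks had a median distance of 616.5 bp, with 5 within 500 bp of the 5′ end, against 551.5 bp and 18 for the 38 peaks that were not called. Neither difference was tested.

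**Figure D5:**
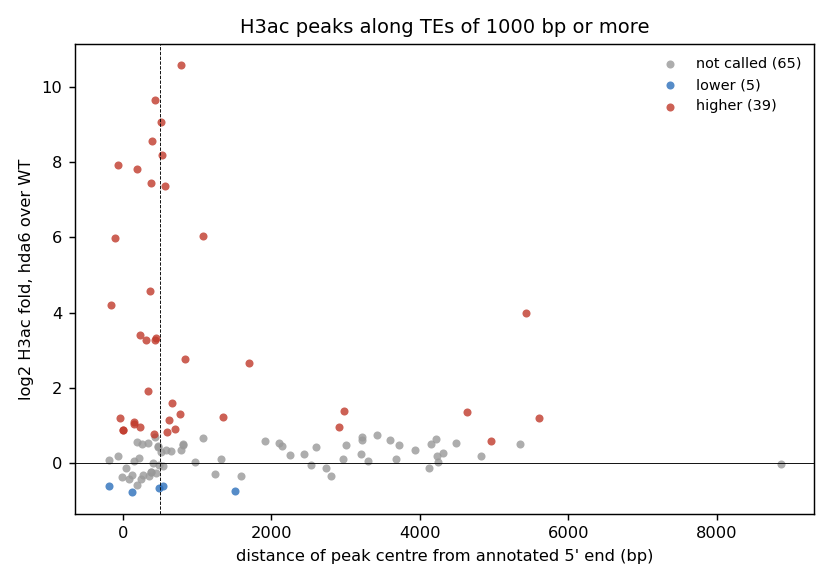
Log2 fold of H3ac in hda6 over WT against the distance of the peak centre from the annotated 5′ end of the TE in bp, for TEs of 1000 bp or more, coloured by call, with a dashed line at 500 bp. Of the 39 higher peaks 20 lie left of the line, and the one with the largest fold (10.58, SADHU3-1) lies right of it.

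The TEs were by median longer than the sets of TEs compared here. Their median printed length was 1332 bp (194 to 13805), against 437.5 bp for the tested TEs that overlap a gene. It was 349 bp for all listed TEs outside genes and 341 bp for all listed TEs. Most listed TEs were not tested, and whether length affects which TEs are tested was not examined. Of the 265, 59 were 4000 bp or longer (22.3%), and the share was 31.1% for those called higher in hda6 and 12.2% for those not called. The rule used the hda6 contrast, so nothing is read from this split. The longest were AT2TE23965 and AT2TE23970 with their shared span, AT4TE19925 (13460 bp), AT4TE14295 (10869 bp) and AT1TE60180 (8990 bp). AT4TE19925 had 1.93 FPKM in WT and 483 in hda6, not called, and AT4TE14295 went from 0 to 241.

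GC content had a median of 39.8%, against 29.6% for all listed TEs and 40.8% for tested TEs in genes. The observed number of CG sites was by median 0.711 of that expected from base composition. This ratio was 0.725 for all listed TEs, 0.720 for all listed TEs outside genes and 0.786 for tested TEs in genes. Among the TEs followed here, it was 0.653 for those called higher in hda6 against 0.803 for those not called. Windows of 500 kb in which TEs cover more bases than genes held 140 of the TEs (52.8%), against 51.3% of all TEs outside genes and 15.1% of tested TEs in genes. The share was 59.3% for TEs called higher in hda6 and 46.3% for those not called, without a test. Nothing is read from this split or that of CG sites, because the rule used the hda6 contrast.

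The distance to the nearest gene had a median of 1191 bp. The nearest TEs to a gene were AT2TE24520 (5 bp), AT5TE78955 (7 bp) and AT5TE48930 (17 bp). AT2TE24520 had 354 FPKM in WT and 434 in hda6, AT5TE78955 180 and 211, and AT5TE48930 0 and 312. Just outside the rule were AT3TE20780 and AT5TE65370, each with 4 bp in a gene, and AT5TE71450 with 30 bp. AT3TE20780 had 0 FPKM in WT and 245 in hda6, AT5TE65370 2.31 and 225, and AT5TE71450 489 and 496. The farthest from a gene were AT4TE21100 (45744 bp), AT5TE43750 (43774 bp, 0 to 188 FPKM in hda6) and AT4TE21115 (35575 bp).

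Genes of TE silencing, with linker histones and DNA demethylases added, were read from the gene tables, as a list of 37 of which 36 were tested. In hda6, AGO6 (an Argonaute of RNA-directed DNA methylation, 0.648 to 1.09 FPKM) and CLSY1 (a remodeller that recruits RNA polymerase IV, 2.80 to 4.07) rose. RDR6 (an RNA-dependent RNA polymerase, 8.52 to 4.97 FPKM) and ROS1 (a DNA demethylase, 12.0 to 4.69) fell. The 4 calls of 36 stand beside 12% of all tested genes. In sant1234-null, AGO6 (0.662 to 1.98 FPKM), CLSY1 (2.86 to 4.61), NRPE1 (a core subunit of RNA polymerase V, 2.65 to 3.65), ATXR5 (a histone H3 methyltransferase, 5.14 to 7.55) and ROS1 (12.3 to 16.7) rose, and RDR6 (8.70 to 5.92) fell, beside 15.3% of all tested genes. ROS1 was called lower in hda6 and higher in sant1234-null, and the difference was not tested. In mbd124 and hhp1 the authors' test called 0 of 36, with 4 and 3 at an unadjusted p under 0.05, beside 11.3% and 6.14% of all tested genes.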

How the data were processed

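Samples were grouped by the genotype and assay of their labels: 15 RNA-seq, 9 H3ac ChIP and 9 input libraries, the inputs not analysed here. The build was TAIR10 and the tools named, without roles, were bedtools, Bowtie2 (2.4.1), CASAVA, Cuffdiff, Cufflinks (2.2.1), DiffBind, MACS2 (2.1.1.20160309) and TopHat2 (2.0.12), per the submitters' processing notes. Strand use and the counting of reads shared between TE copies were not given in the sources used here, which leaves values of near-identical copies uncertain. An FPKM per genotype stands in the RNA tables, scaled by the authors within each table. The deposited q-value is the Benjamini-Hochberg adjustment of the deposited p-value over tested TEs, as recomputation showed. The deposited peak tables hold log2 concentrations, log2 folds and an FDR, per the file headers. The depth of the RNA libraries is unknown. The labels call the replicates biological but name no separate growths, so p-values may cover only the spread between these samples.

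Starts in the RNA tables count from 0 and were raised by 1. Overlaps needed 1 bp. Log2 changes were recomputed from FPKM, with 0.1 FPKM added for one alternative, which understates the change of low TEs, and no fold is given against an RNA level of 0. Where TEs overlap, the tables print 1 joint span for them, which 28 of the 265 share with another TE. Sequences, strands and pseudogene names came from RefSeq TAIR10.1. Of 22479 genes with a span of their own, 99.99% had the same start and end there. Copies were compared with blastn 2.17.0 (near-identical: 95% over 200 bp), and terminal direct repeats needed 100 bp at 80% identity within 50 bp of each end. Scripts were tested on simulated data.

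The TEs, the lists and the tests were chosen with earlier results of these data known. Named were the 8 largest and 8 smallest called log2 changes in hda6, the 6 highest from 0, up to 8 called in each other mutant and up to 8 peaks per peak table. Further, the 5 highest in WT, the 5 longest, the 3 nearest to and farthest from a gene, and called genes of the silencing list were named. The Sadhu, MUG, RE2, CYTOSLEEPER and terminal-repeat TEs, and those with a large uncalled change, were chosen after their values were seen. Alternatives were stricter thresholds, pseudocounts, other overlap and distance rules, and sets without shared spans or near-identical copies.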

Additional observations from a re-analysis of the deposited data

How the results depend on the processing

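No paired analysis was possible because the tables hold 1 value per genotype, and for the same reason no replicate could be left out. No direction reversed, 81 recomputed values kept their size and 26 moved. With only TEs more than 1000 bp from a gene, called TEs numbered 81 higher and 4 lower in hda6, 5 and 1 in sant1234-null, 2 higher and 3 lower in mbd124, and 2 higher in hhp1. Only 10 TEs higher in hda6 were tested in all 4 tables. With a q-value under 0.01, lower calls numbered 3 in hda6, 1 in sant1234-null and 3 in mbd124, and higher calls 3 in mbd124 and 2 in hhp1. An absolute log2 change of 1 or more left 3 higher in mbd124 and 2 in hhp1. Without TEs that share a printed span, 1 was lower in sant1234-null and 3 in mbd124. Without near-identical copies, 1 was lower in hhp1 (both TEs at EXT11 left the count). Without TEs called higher in hda6 RNA, higher H3ac peaks numbered 10 in hda6 and 11 in sant1234-null. In hda6 these were 9 of 64 peaks at TEs not called and 1 of 9 at TEs called lower, beside 5.29% of all peaks. In sant1234-null they were 8 of 52 and 3 of 8 by the same hda6 RNA calls, beside 15.2% of all peaks. With an FDR under 0.01, lower peaks numbered 4 and 1. The sets without shared spans, without copies and without TEs called higher in hda6 RNA were added after the data were seen. For TEs at 0 in WT the depth sets what could be seen, and it is unknown.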
